A study of Mus musculus with 36 samples.

Results

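The stargazer mouse carries a mutation of Cacng2, which encodes stargazin, and the question here was which transcripts followed the loss of this gene in one brain region and not in the other. The measurement was the effect in cerebellum (stg-/- minus stg+/+) minus the effect in forebrain (stg-/- minus stg+/+), called the difference of effects below. It used 12 of the 36 arrays of the series, 3 in each of 4 groups: stg-/- cerebellum, stg+/+ cerebellum, stg-/- forebrain and stg+/+ forebrain. Every array held total RNA of 1 region of mouse brain, hybridised to a 1-colour Affymetrix array. The labels give no age, strain or pooling, they spell the line stg, and that stg stands for stargazer is read from the common use of the symbol. They do not say whether both regions came from the same animals. The same contrast could be set beside it in 2 other calcium channel mutants of the series, labelled tg and lh and read as tottering and lethargic, each with -/- and +/+ arrays in both regions.

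Stargazin is a transmembrane AMPA receptor regulatory protein, or TARP. It carries AMPA-type glutamate receptors to the cell surface and holds them at the synapse. In the mouse cerebellum, granule cells depend on it for AMPA receptors at their mossy fibre synapses, whereas many forebrain neurons also hold the related proteins encoded by Cacng3 and Cacng8. Stargazer mice have ataxia and absence seizures.

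Cacng2 itself fell in both regions. Probe set 1420596_at read 4.59, 4.72 and 2.43 in stg-/- cerebellum, against 473, 841 and 595 in stg+/+ cerebellum. In forebrain it read 6.93, 4.41 and 1.59 in stg-/-, against 256, 305 and 235 in stg+/+. All values are deposited signal intensities, and tests used log2 of the signal plus 2.98, the 10th percentile of all values, so that the -/- arrays lie near the floor in both regions. The effect was -6.51 ± 0.30 in cerebellum and -5.26 ± 0.30 in forebrain (log2, SE). The difference of effects was -1.25, with a 95% interval from -2.16 to -0.33, and did not pass after adjustment over all probe sets (adjusted p = 0.535). The second probe set, 1440210_at, gave -0.92 (adjusted p = 0.925). Its value rests on stg-/- cerebellum 3, which read 3.21 against 30.1 and 41.7 in the other stg-/- cerebellum arrays, and was -0.04 without that array. The stg-/- arrays lay near the floor in both regions, and the stg+/+ level was higher in cerebellum.

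Many more probe sets were called in stg-/- cerebellum than in stg-/- forebrain, each against stg+/+. With limma over the 12 arrays and a Benjamini-Hochberg adjusted p under 0.05 as the threshold, 298 of 27022 probe sets (1.10%) differed between stg-/- and stg+/+ in cerebellum. In forebrain 3 did (0.0111%): the 2 of Cacng2 and 1 of Arhgap39. The difference of effects passed for 27 probe sets (0.0999%), 15 positive (0.0555%) and 12 negative (0.0444%), which named 20 genes. At an unadjusted p under 0.05 it passed for 1752 probe sets (6.48%), 853 positive (3.16%) and 899 negative (3.33%). All 27 had the larger effect in cerebellum, all 27 were called there and none was called in forebrain, where 1 reached an unadjusted p under 0.05 against 2.79% of all probe sets. In bulk tissue, a change in the number of cells of a type and a change of RNA per cell cannot be told apart.

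**Figure D1:**
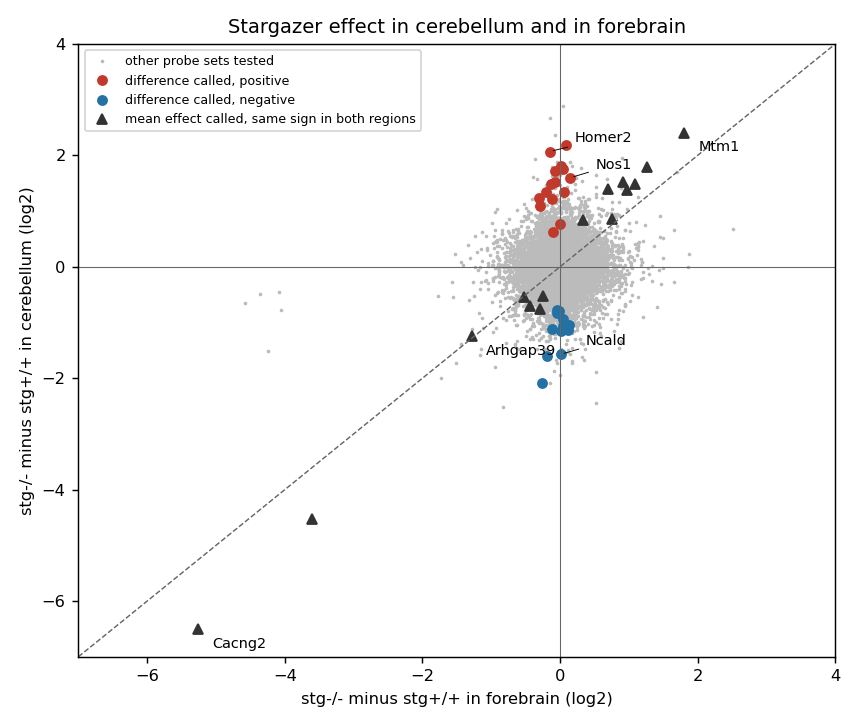
Effect of stg-/- against stg+/+ on each of 27022 probe sets, in cerebellum (vertical, log2) and in forebrain (horizontal, log2), with the line of equal effects dashed. The 15 positive and 12 negative called differences lie along the vertical axis, with forebrain effects between -0.30 and 0.15. The 15 probe sets with a called mean effect and the same sign in both regions, Cacng2 among them, are marked apart. Among these, Rab3c and Camk4 have forebrain effects of -0.25 and -0.29, within the range of the called differences.

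An effect was described as held within cerebellum where the difference of effects was called, the cerebellar effect was called, and the 95% interval of the forebrain effect lay inside a 1.5-fold change either way (0.58 on the log2 scale). This held for 25 of the 27 probe sets and 18 of the 20 genes. The exceptions were Sema5b, with a forebrain interval from -0.70 to 0.10, and probe set 1432184_a_at of Inf2, with one from -0.62 to 0.03. The other called probe set of Inf2 had a forebrain interval from -0.51 to 0.35. No effect was held within forebrain. The stg-/- and stg+/+ arrays did not overlap in cerebellum for any of the 27, which follows from how they were chosen; of all probe sets tested, 15.6% did not overlap there. In forebrain they did not overlap for 3, against 7.54% of all probe sets tested, which were 1458697_at, Sema5b and probe set 1417568_at of Ncald, each lower in all stg-/- arrays.

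**Figure D2:**
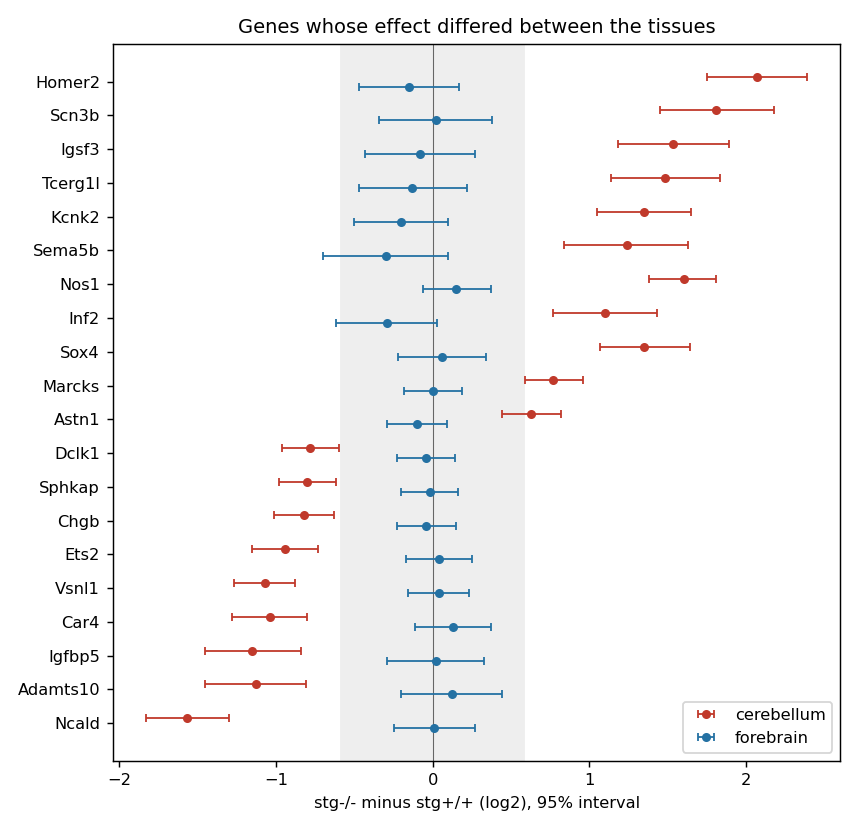
Effect of stg-/- against stg+/+ in cerebellum (red) and forebrain (blue) for the 20 named genes, as log2 with 95% intervals from limma, 3 arrays a group, at the probe set with the smallest p. The grey band marks a 1.5-fold change either way, and the forebrain intervals of Sema5b and Inf2 reach past it.

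Homer2 had the largest positive difference among the called probe sets. It encodes a postsynaptic scaffold that ties group I metabotropic glutamate receptors to calcium release channels of the endoplasmic reticulum. Probe set 1457671_at read 710, 563 and 694 in stg-/- cerebellum, against 148, 159 and 152 in stg+/+ cerebellum. The forebrain arrays read 288, 234 and 366 in stg-/-, against 290, 351 and 329 in stg+/+. The cerebellar groups were apart by 4.20-fold, while the forebrain groups overlapped. Cerebellum minus forebrain, the effects differed by 2.22 ± 0.21 (log2, SE; adjusted p = 5.31e-04). Probe set 1424367_a_at of Homer2 gave 2.09 ± 0.28 (adjusted p = 0.00775). The cerebellum of stg-/- mice thereby exceeded both forebrain groups, although stg+/+ cerebellum lay 1.06 below stg+/+ forebrain on the log2 scale (stg+/+ cerebellum minus stg+/+ forebrain, -1.06).

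Nos1, the neuronal nitric oxide synthase, is found in granule cells and in interneurons of the molecular layer. Probe set 1429887_at read 1475, 1291 and 1425 in stg-/- cerebellum, against 447, 473 and 459 in stg+/+ cerebellum. The forebrain arrays read 335, 301 and 292 in stg-/- and 264, 258 and 313 in stg+/+, and overlapped. The effects differed by 1.44 ± 0.14 (adjusted p = 6.85e-04), and 1.73 ± 0.20 at probe set 1438483_at (adjusted p = 0.00184). Unlike for Homer2, cerebellum was already the higher region in stg+/+ mice, by 0.72 on the log2 scale.

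A pair of ion channel genes rose in stg-/- cerebellum, with forebrain effects of -0.20 and 0.02 that did not pass. Kcnk2, the potassium channel TREK-1, read 305, 292 and 254 in stg-/- cerebellum, against 102, 120 and 107 in stg+/+ cerebellum. In forebrain its arrays read 358, 377 and 341 in stg-/- and 445, 476 and 327 in stg+/+. The forebrain groups overlapped and the difference of effects was 1.54 ± 0.20 (adjusted p = 0.00601). Scn3b, the beta-3 subunit of voltage-gated sodium channels, read 204, 164 and 179 in stg-/- cerebellum, against 64.7, 52.9 and 35.1 in stg+/+ cerebellum. Its forebrain arrays read 723, 763 and 842 in stg-/- and 801, 726 and 763 in stg+/+. For Scn3b the effects differed by 1.79 ± 0.24 (adjusted p = 0.00775), and stg-/- cerebellum stayed far below either forebrain group.

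**Figure D3:**
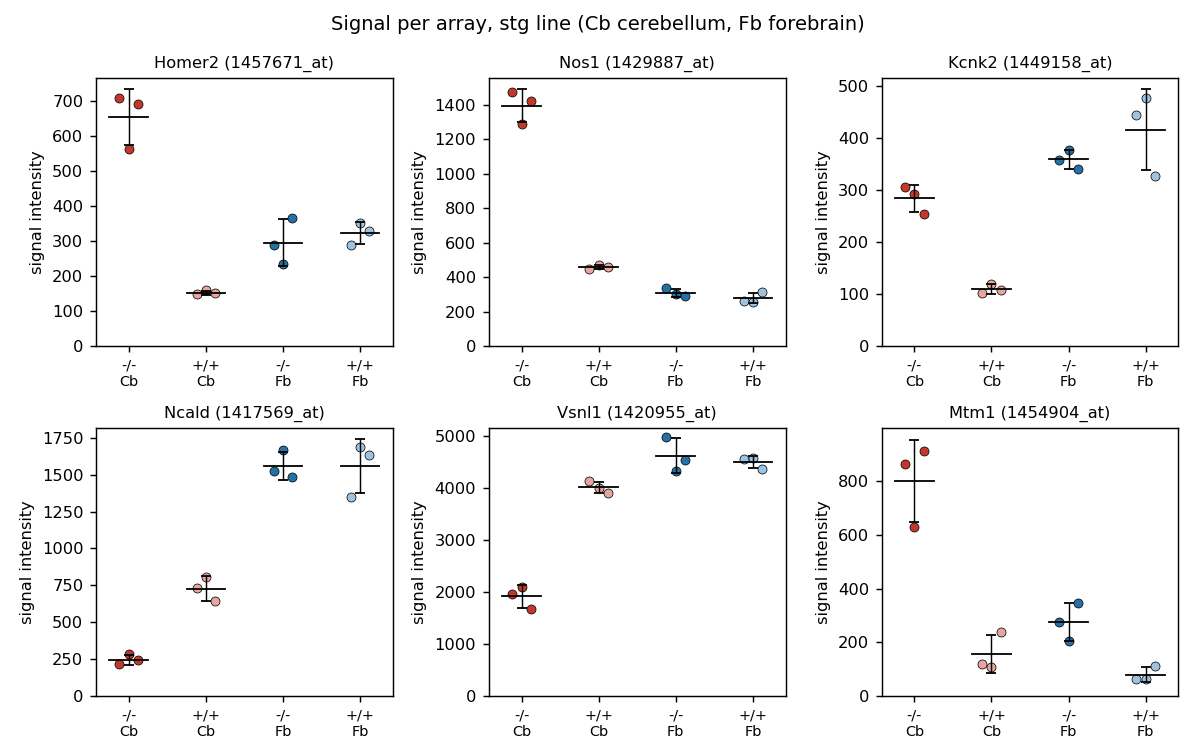
Signal intensity per array for Homer2, Nos1, Kcnk2, Ncald, Vsnl1 and Mtm1 in stg-/- cerebellum, stg+/+ cerebellum, stg-/- forebrain and stg+/+ forebrain (left to right; linear axes from 0; points are arrays, lines are means, bars are SD, n = 3). For the first 5 genes the cerebellar groups are apart and the forebrain groups overlap, and for Mtm1 the groups are apart in both regions.

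Of the other positive genes, Sox4, an HMG-box transcription factor of immature neurons, averaged 596 ± 98.4 in stg-/- cerebellum and 230 ± 10.4 in stg+/+ cerebellum, against 601 ± 101 in stg-/- forebrain and 571 ± 27.1 in stg+/+ forebrain (signal, SD, n = 3 each). Igsf3, a membrane protein of the immunoglobulin superfamily, averaged 207 ± 39.4 in stg-/- cerebellum and 68.9 ± 8.40 in stg+/+ cerebellum, against 104 ± 9.42 and 110 ± 6.56 in stg-/- and stg+/+ forebrain. Tcerg1l, named as a relative of a transcription elongation regulator, averaged 144 ± 14.8 and 49.7 ± 7.36 in stg-/- and stg+/+ cerebellum. Its forebrain averages were 128 ± 18.4 in stg-/- and 139 ± 0.483 in stg+/+. The differences of effects were 1.29 for Sox4, 1.62 for Igsf3 and 1.61 for Tcerg1l, with adjusted p of 0.0111, 0.0111 and 0.010.

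The remaining 4 positive genes had smaller or less certain differences. Inf2, a formin that builds and cuts actin filaments, had differences of 1.39 and 1.80 at its 2 called probe sets (adjusted p = 0.0209 and 0.025). Sema5b, a semaphorin that guides axons, had 1.53 (adjusted p = 0.0404). Marcks, a substrate of protein kinase C that binds membranes and actin, had 0.77 (adjusted p = 0.025). Astn1, the neuronal adhesion protein astrotactin on which migrating granule cells rely, had 0.73 (adjusted p = 0.046) and was not called when any 1 array was left out. Both probe sets of Inf2, Marcks and Sema5b passed in 2 to 4 of the 12 fits that left out 1 array. Marcks averaged 1481 ± 44.1 in stg-/- cerebellum and 869 ± 87.1 in stg+/+ cerebellum, while stg-/- and stg+/+ forebrain averaged 1048 ± 36.1 and 1045 ± 30.3.

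Of the negative differences, the neuronal calcium sensors Ncald and Vsnl1 had the smallest p among named genes. Ncald encodes neurocalcin delta, and Vsnl1 encodes visinin-like protein VILIP-1. Both proteins bind membranes when calcium rises. Ncald at probe set 1417569_at read 213, 280 and 240 in stg-/- cerebellum, against 734, 806 and 642 in stg+/+ cerebellum. Its forebrain arrays read 1522, 1670 and 1485 in stg-/- and 1346, 1686 and 1636 in stg+/+. The forebrain effect was 0.01, with a 95% interval from -0.25 to 0.27. The effects differed by -1.57 ± 0.17 (adjusted p = 0.00161), and -1.41 ± 0.19 at probe set 1417568_at (adjusted p = 0.00775).

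Vsnl1 read 1968, 2104 and 1677 in stg-/- cerebellum, against 4135, 4006 and 3909 in stg+/+ cerebellum. Forebrain arrays read 4995, 4336 and 4555 in stg-/- and 4556, 4592 and 4380 in stg+/+. The 3 other groups thus lay close together and stg-/- cerebellum lay below each of them. The effects differed by -1.11 ± 0.13 (adjusted p = 0.00208), and the second probe set, 1450055_at, gave -0.88 (adjusted p = 0.0888). Ncald lies on the chromosome of Cacng2, but outside a window of 10 Mb to either side.

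Chgb encodes chromogranin B, a granin packed into dense-core vesicles with neuropeptides. It averaged 2631 ± 76.1 in stg-/- cerebellum and 4664 ± 381 in stg+/+ cerebellum, against 3551 ± 205 in stg-/- forebrain and 3657 ± 303 in stg+/+ forebrain (signal, SD, n = 3 each), a difference of effects of -0.78 (adjusted p = 0.025). Ets2, an ETS-family transcription factor, read 311, 291 and 283 in stg-/- cerebellum, against 631, 558 and 520 in stg+/+ cerebellum. Its forebrain arrays lay between 417 and 459 in stg-/- and between 422 and 436 in stg+/+, so that the cerebellum of stg+/+ mice was the higher region and that of stg-/- mice the lower one. For Ets2 the effects differed by -0.98 (adjusted p = 0.00988).

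The last negative genes were Car4, Sphkap, Dclk1, Adamts10 and Igfbp5. Car4, a carbonic anhydrase on the outer cell surface, had differences of -1.17 and -1.01 at its 2 probe sets (adjusted p = 0.00775 and 0.0316). Sphkap, an anchor of protein kinase A, had -0.78 (adjusted p = 0.0195). Dclk1, a kinase that binds microtubules, had -0.74 (adjusted p = 0.0316). Adamts10, a secreted metalloprotease, had -1.24 (adjusted p = 0.0404), and Igfbp5, which binds insulin-like growth factors, had -1.17 (adjusted p = 0.0477). In stg+/+ mice Car4, Sphkap and Adamts10 were higher in cerebellum and Dclk1 was higher in forebrain. With 1 array left out, Sphkap passed in 8 of 12 fits, Chgb in 3, Dclk1 and the second probe set of Car4 in 2 each, and Adamts10 and Igfbp5 in 1 each.

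The probe set with the smallest p of all, 1458697_at, has no gene name in the annotation used. It read 365, 265 and 281 in stg-/- cerebellum, against 1418, 1224 and 1230 in stg+/+ cerebellum. Its forebrain arrays read 405, 415 and 380 in stg-/-, against 451, 519 and 473 in stg+/+. Its effect was -2.09 in cerebellum and -0.26 in forebrain on the log2 scale, the forebrain effect having an unadjusted p of 0.0448. The effects differed by -1.82 ± 0.17 (adjusted p = 5.31e-04). The other unnamed probe set, 1438778_at, had a difference of 1.33 (adjusted p = 0.0316).

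The called genes had other probe sets that did not pass. Of these 30 probe sets, from 13 genes, 28 had the sign of the called one and 20 also had an unadjusted p under 0.05. Over all probe sets tested 6.48% reached this p in either direction. The 30 read the called genes on the arrays that chose them and are no independent support. For Sphkap, 1431069_at gave only -0.05 (unadjusted p = 0.871). The 2 of opposite sign belong to Marcks. For Sox4, 5 further probe sets gave between 0.83 and 2.45, the highest at 1419156_at. The lowest, 1455867_at, had no rise in cerebellum (-0.00) and -0.83 in forebrain, at signals from 9.12 to 48.5 (unadjusted p of the difference 0.259). For Nos1, 1422949_at gave 1.06 (adjusted p = 0.889), with a forebrain effect of 0.90 that did not pass either (unadjusted p = 0.0963).

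The levels of the positive and negative probe sets in stg+/+ mice are described next. Of the 15 positive probe sets, 13 were lower in stg+/+ cerebellum than in stg+/+ forebrain, with a median difference between regions of -1.06 on the log2 scale. In stg-/- mice the median over the same 15 was 0.48. Of the 12 negative probe sets, 7 were higher in stg+/+ cerebellum, with a median of 0.38, against -0.50 in stg-/- mice. The stg-/- cerebellum lay above both stg+/+ means for 10 of the 15 positive probe sets and between them for 5. It lay below both stg+/+ means for 8 of the 12 negative ones and between them for 4. These counts use the arrays that chose the probe sets and are a description. The stg+/+ levels are part of the difference of effects, so that choice by its sign favours such a contrast. No share over all probe sets is given beside the counts, and Homer2, Nos1, Inf2, Ncald and Car4 enter more than once.

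The probe sets called in cerebellum, the 27 among them, had small effects in forebrain at the median. Leaving Cacng2 out, 296 were called in cerebellum, 125 higher (0.463% of all tested) and 171 lower (0.640% with the 2 of Cacng2). Their median size in cerebellum was 0.79 on the log2 scale. Along the same direction, the median effect in forebrain was 0.04. The sign was the same in both regions for 170 of 296, or 57.4%, against 51.5% over all probe sets tested. In forebrain 19 of the 296, or 6.42%, had an unadjusted p under 0.05, against 2.79% of all. The forebrain interval lay inside a 1.5-fold change for 234, or 79.1%, against 54.6% of all probe sets tested. The forebrain effect was the smaller one for 295, against 15920 of all 27022, a count that selection on a cerebellar call nearly fixes. For the other 62 the interval was not inside that range, and a difference of effects was called for 27 of the 296 only.

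Few probe sets had a called mean effect with the same sign in both regions, and some lay close to Cacng2. With a called mean effect (71 probe sets, 0.263%), no called difference, and the same sign with an unadjusted p under 0.05 in each region, 15 probe sets remained, 8 higher and 7 lower. They named 11 genes with Cacng2, and in forebrain alone those of Cacng2 and Arhgap39 passed after adjustment. Mtm1, which encodes the phosphoinositide phosphatase myotubularin, read 864, 629 and 913 in stg-/- cerebellum, against 120, 109 and 239 in stg+/+ cerebellum. The forebrain arrays read 277, 203 and 345 in stg-/-, against 60.7, 63.1 and 110 in stg+/+. The groups were apart in both regions, and the difference of effects was 0.61, with a 95% interval from -0.27 to 1.49. These values are of 1454904_at. At 1434278_at of Mtm1 the difference was 0.62, with an interval from 0.06 to 1.18 (adjusted p = 0.693).

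Arhgap39, a GTPase-activating protein, read 125, 108 and 122 in stg-/- cerebellum, against 342, 217 and 311 in stg+/+ cerebellum. Forebrain arrays read 192, 222 and 149 in stg-/-, against 427, 417 and 527 in stg+/+. The effects were -1.25 in cerebellum and -1.28 in forebrain, and the interval of their difference ran from -0.51 to 0.57. The splicing factor Rbfox2 rose by 0.86 in cerebellum and had 0.75 in forebrain. Arhgap39 and Rbfox2 lie within 10 Mb of Cacng2, as do 1.44% of the genes tested. None of the 20 genes with a called difference does.

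Of the other shared genes, Cdh7, a cadherin, had 1.37 in cerebellum and 0.97 in forebrain. Exph5, an effector of Rab27 small GTPases, had -0.54 in cerebellum and -0.53 in forebrain, with a difference interval from -0.32 to 0.30. Synpr, the synaptic vesicle protein synaptoporin, had 0.84 in cerebellum and 0.33 in forebrain. Rab3c, a small GTPase of synaptic vesicles, had -0.52 in cerebellum and -0.25 in forebrain, and Camk4, a calcium/calmodulin-dependent kinase enriched in granule cells, had -0.76 and -0.29 in these regions. Mndal, of the interferon-inducible p200 family, had 1.40 in cerebellum and 0.70 in forebrain. For Synpr and Camk4 the interval of the difference left out 0 (0.12 to 0.91, and -0.86 to -0.10). That of 1434278_at of Mtm1 did too, although none of these passed after adjustment. Inpp5f, outside the rule for naming and added after its values were seen, had -0.71 in cerebellum and -0.43 in forebrain.

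Among the AMPA receptor genes and their partners, no difference of effects was called in 27 measured members, Cacng2 among them. Of these 16 were above 0, with a median of 0.07. The median over 12472 genes was 0.03, with 55.1% above 0. The TARP gene Cacng3 read 55.5, 42.8 and 40.9 in stg-/- cerebellum, against 57.9, 54.2 and 45.5 in stg+/+ cerebellum. Its forebrain arrays read 419, 423 and 343 in stg-/-, against 349, 455 and 346 in stg+/+. Cacng3 was thus the forebrain member in both genotypes, and its difference of effects was -0.22 (adjusted p = 0.958). The receptor subunit genes Gria1, Gria2 and Gria4 had differences of 0.24, 0.19 and 0.27, with adjusted p of 0.825, 0.917 and 0.809.

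**Figure D4:**
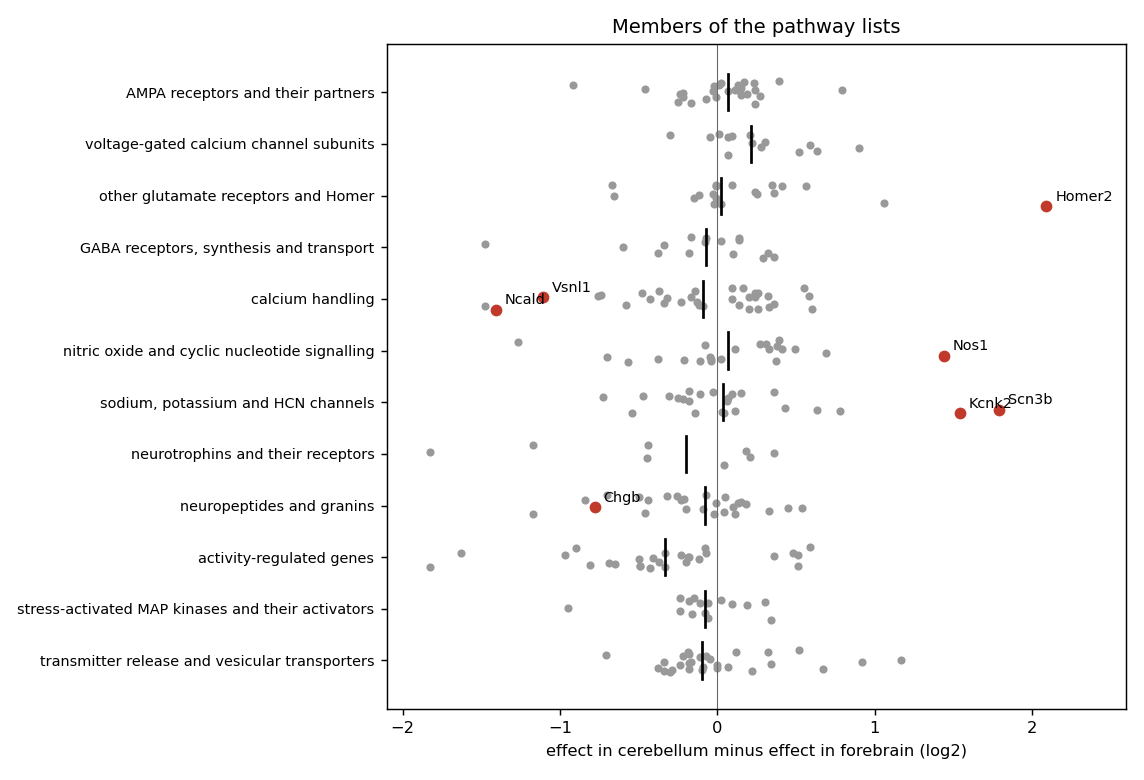
Difference of effects (cerebellum minus forebrain, log2) of each measured member of 12 pathway lists, 1 probe set per gene. Points are genes, the short black line is the median of the list, and red points are called differences; calcium handling stands for stores, buffers, pumps, sensors and kinases of calcium. Of the 7 called points, Homer2 lies highest and Ncald lowest, and the median of the activity-regulated genes is the lowest at -0.33.

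Calcium handling and the sodium, potassium and HCN channels had 2 called members each, the other lists 1 or none. The share called over all probe sets tested was 0.0999%. Of 33 measured genes of calcium handling, Ncald and Vsnl1 were called for the difference, both negative. In cerebellum alone 1 was called higher and 8 lower, against 0.463% and 0.640% of all probe sets tested. At an unadjusted p under 0.05 the difference was positive for 1 and negative for 8, against 3.16% and 3.33% of all. The median of the list was -0.09. Below the threshold, Camk1d, a calmodulin-dependent kinase, had -0.74 (adjusted p = 0.125). Ryr3, a calcium release channel of the endoplasmic reticulum, had -1.48 (adjusted p = 0.259). Hpcal4, a further calcium sensor, was the 1 positive at the unadjusted threshold, with 0.58 (adjusted p = 0.386).

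Voltage-gated calcium channel subunits had no called difference in 14 measured members, 12 of which were above 0, with a median of 0.22. Over all genes tested 55.1% were above 0, and 0.463% of all probe sets tested were called higher in cerebellum. In cerebellum 2 were called higher, Cacna1d with a difference of effects of 0.90 (adjusted p = 0.234) and Cacna2d3 with 0.59 (adjusted p = 0.227). Cacna1d, an L-type pore subunit, read 406, 311 and 447 in stg-/- cerebellum, against 223, 195 and 249 in stg+/+ cerebellum. Its forebrain arrays lay between 168 and 173 in stg-/- and between 153 and 227 in stg+/+, and overlapped.

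Among the other glutamate receptors and Homer scaffolds, Homer2 was the 1 of 19 that was called. Grm5, a group I metabotropic receptor that binds Homer proteins, read 94.2, 55.9 and 75.8 in stg-/- cerebellum, against 43.8, 37.5 and 34.1 in stg+/+ cerebellum. Its forebrain arrays lay between 719 and 897 in stg-/- and between 872 and 962 in stg+/+. For Grm5 the effects differed by 1.06 (adjusted p = 0.149). In the list of sodium, potassium and HCN channels, Scn3b and Kcnk2 were called of 24. In cerebellum 2 members were called higher and 3 lower, against 0.463% and 0.640% of all probe sets tested. Nos1 was the 1 of 22 called among the genes of nitric oxide and cyclic nucleotide signalling.

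Neuropeptides, granins and dense-core vesicle enzymes had 1 called member of 26, Chgb, and 5 with an unadjusted p under 0.05, all negative. Over all probe sets tested, 0.0444% were called negative and 3.33% were negative at this unadjusted p. Vgf, whose product is cleaved into neuropeptides, read 61.8, 83.1 and 56.2 in stg-/- cerebellum, against 129, 158 and 107 in stg+/+ cerebellum. In forebrain it read 1052, 987 and 808 in stg-/-, against 842, 902 and 694 in stg+/+. The regions had opposite signs, and the difference was -1.17 (adjusted p = 0.115). The granin Scg2 had -0.70 (adjusted p = 0.123).

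Activity-regulated genes, which neurons switch on after firing, had no called difference in 27 measured members. They lay below 0 in 22 of 27, with a median of -0.33, from a median of -0.42 in cerebellum and -0.03 in forebrain. Over all genes 55.1% lay above 0, with a median of 0.03. At an unadjusted p under 0.05 the difference was positive for 2 members and negative for 4, against 3.16% and 3.33% of all probe sets. In cerebellum 1 member was called higher and 1 lower, against 0.463% and 0.640% of all. Bdnf, the brain-derived neurotrophic factor, read 64.8, 38.3 and 31.9 in stg-/- cerebellum, against 122, 86.4 and 186 in stg+/+ cerebellum at probe set 1422169_a_at. Forebrain arrays read 166, 126 and 148 in stg-/-, against 102, 129 and 111 in stg+/+. The effects of Bdnf differed by -1.83 at this probe set (adjusted p = 0.121) and by -2.96 at 1422168_a_at (adjusted p = 0.0763). At 1422168_a_at stg-/- cerebellum read 19.5, 31.8 and 5.74, the last near the floor, against 78.1, 84.3 and 152 in stg+/+ cerebellum. From arrays 1 and 2 of each group its difference was -2.12, and from array 3 it was -4.62. GABA receptors, synthesis and transport, neurotrophins, stress-activated MAP kinases and transmitter release had no called difference in 15, 8, 15 and 29 measured members.

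The same-numbered arrays deviated together, and fits with a block for this called more differences of effects. Deviations from the group means correlated between same-numbered stg-/- and stg+/+ arrays, with r from 0.128 to 0.333 in cerebellum and from 0.146 to 0.363 in forebrain. Between regions of a genotype, r ran from 0.167 to 0.425. With the replicate number as a block within each region, 110 probe sets were called, 49 positive and 61 negative, and 108 of them had the larger effect in cerebellum. With genotype and number as a random block across regions, 142 were called, 64 positive and 78 negative, and 140 were larger in cerebellum. All 27 probe sets were among the calls of each block. Most forebrain numbers are names given in the order of the records, so that the labels do not make them pairs.

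Of 27022 probe sets, 110 passed with the block within regions and 142 with that across regions, against 27 with no block. With a block, further members of the lists passed. Under both blocks these were Grm5 (positive), Scg2 and Vgf (negative), the calmodulin-dependent kinase Camk2d (negative), the axonal adhesion molecule Ntng1 (negative) and the vesicular glutamate transporter Slc17a6 (positive). Bdnf passed at 1422168_a_at under both blocks and at 1422169_a_at across regions only. Slc17a6 read 251, 247 and 329 in stg-/- cerebellum, against 173, 128 and 142 in stg+/+ cerebellum. Its forebrain arrays lay between 891 and 967 in stg-/- and between 902 and 1048 in stg+/+. In the unblocked fit Slc17a6 had a difference of 0.92 (adjusted p = 0.106).

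Several properties of the arrays moved with the groups. Growth hormone and prolactin transcripts of the pituitary were high in stg+/+ forebrain 1 and 2, where Gh at 1437522_x_at read 1862 and 1511, against 12.3, 1.47 and 55.6 in stg-/- forebrain and 3.49 in stg+/+ forebrain 3. Summed over 8 pituitary and hypothalamic markers, the signal ran from 1203 to 1775 in stg-/- forebrain and from 1289 to 6636 in stg+/+ forebrain. Without these 2 arrays, which leaves 1 stg+/+ forebrain array, 10 differences were called, 6 of them among the 27. The lone array is assumed there to vary like those of the other groups. The 3' to 5' difference of Actb, a sign of RNA quality, ran from 0.685 to 0.792 in stg-/- forebrain and from 0.836 to 1.14 in stg+/+ forebrain (log2; two-sided exact permutation p = 0.1, the smallest that 3 against 3 arrays allow). In cerebellum it overlapped, from 0.921 to 1.08 in stg-/- and from 0.939 to 1.12 in stg+/+. The part of RNA quality in the results was not tested.

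Marker genes of cell types had no called difference of effects in any of 12 lists in the unblocked fit. With the block within regions the granule cell marker Slc17a7, a vesicular glutamate transporter, was called with -0.71 (adjusted p = 0.0245, against 0.358 unblocked). With the random block across regions the Purkinje cell marker Rora, a nuclear receptor, was called with 0.48 (adjusted p = 0.0441, against 0.215 unblocked). The summed signal of 17 granule cell markers ran from 39708 to 41779 in stg-/- cerebellum and from 42024 to 47750 in stg+/+ cerebellum, the groups being apart, and their median difference of effects was -0.07. For 15 Purkinje cell markers the sum ran from 60850 to 67245 in stg-/- cerebellum and from 46992 to 59735 in stg+/+ cerebellum, with a median difference of 0.25 and 11 of 15 above 0. The sums of 15 astrocyte markers (32244 to 33793 in stg-/- cerebellum, 28451 to 31362 in stg+/+ cerebellum) and of 12 microglia markers (1676 to 2196 in stg-/- cerebellum, 1582 to 1663 in stg+/+ cerebellum) did not overlap either. Of lists drawn up for tissue outside the cerebellum, the sum of 8 pituitary and hypothalamus markers overlapped in cerebellum. It ran from 355 to 458 in stg-/- and from 266 to 872 in stg+/+, with a median cerebellar effect of -0.18. The sums of the forebrain, striatal and thalamic lists were higher in every stg-/- cerebellum array. Those lists are not specific to such tissue, as Calb1, Pvalb, Rora and Eomes are also in lists of cerebellar cells. For 11 forebrain excitatory and hippocampal markers the sum ran from 10995 to 12416 in stg-/- cerebellum and from 8083 to 10708 in stg+/+ cerebellum. It was not higher in forebrain, with 5951 to 8064 in stg-/- and 5847 to 8309 in stg+/+. Neurod6, a member of this list, read 35.2, 34.7 and 45.7 in stg-/- cerebellum, against 47.3, 44.6 and 59.6 in stg+/+ cerebellum. For 12 striatal and interneuron markers it ran from 8347 to 8668 in stg-/- cerebellum and from 6388 to 8138 in stg+/+ cerebellum. For 11 markers of thalamus, olfactory bulb and midbrain it ran from 3176 to 3617 in stg-/- cerebellum and from 2897 to 3090 in stg+/+ cerebellum. Gene by gene, the median cerebellar effects of these lists were 0.22, -0.02 and -0.04 in the order given. Members above 0 were 8 of 11, 5 of 12 and 5 of 11. For 15 oligodendrocyte markers the median difference was 0.20, from 0.08 in cerebellum and -0.17 in forebrain, where 1 of 15 was above 0. The labelled regions were checked by their defining markers, of which Gabra6 of granule cells read 5222 to 5399 in stg-/- cerebellum and 6770 to 7311 in stg+/+ cerebellum, against 6.56 to 97.9 in stg-/- forebrain and 10.5 to 178 in stg+/+ forebrain. The part of cell numbers and of other tissue in the 27 differences was not tested. Xist was high in arrays 1 and 2 of each group and near the floor in array 3, whose Y-linked Eif2s3y was high, so that sex was balanced over the groups.

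The other 2 calcium channel lines gave values from separate arrays. The difference of effects in tg had the stg sign for 23 of the 27 probe sets, and in lh for 24. An unadjusted p under 0.05 with that sign was reached by 11 in tg and by 9 in lh, against 3.06% and 5.48% of all probe sets at this p in either direction. After adjustment none of the 27 passed in tg and 1 passed in lh, while each line had 3 calls in all (0.0111%). That 1 was 1458697_at, with -1.02 (adjusted p = 0.0405) in lh, -0.47 in tg and -1.82 in stg. Along the stg direction the median difference was 0.29 in tg and 0.29 in lh, against 1.39 in stg, where the probe sets were chosen. Whether the lines differ was not tested.

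**Figure D5:**
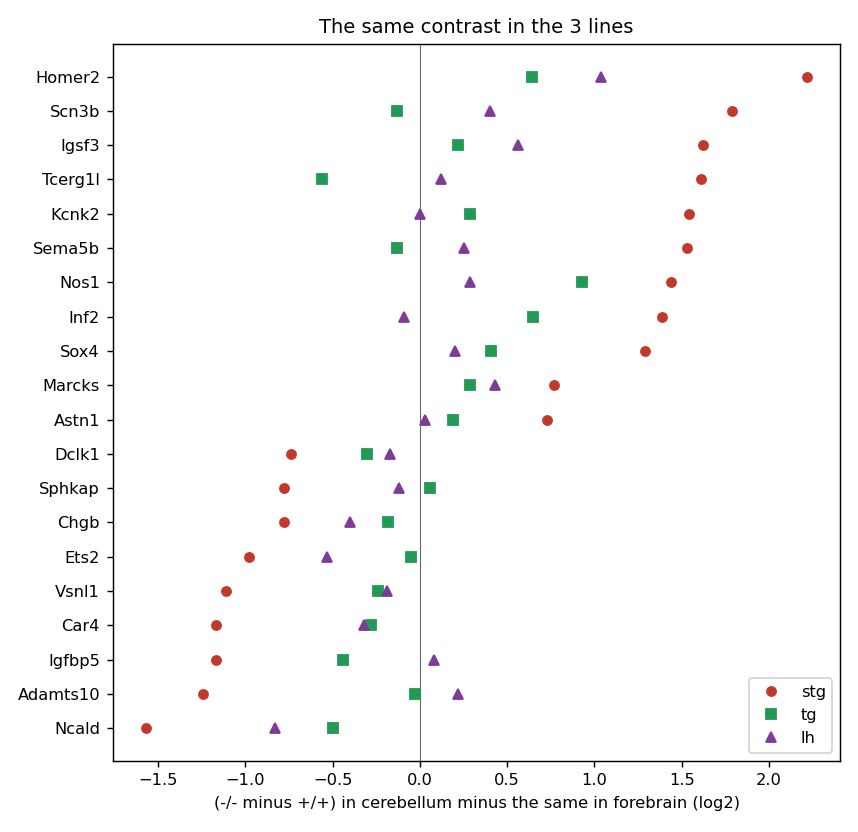
Difference of effects (log2) of the 20 named genes in stg (circles), tg (squares) and lh (triangles), each from 12 arrays of its own. Homer2 lies at 2.22 in stg, 0.64 in tg and 1.04 in lh, Ncald at -1.57, -0.50 and -0.83, and Tcerg1l at 1.61, -0.56 and 0.12.

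Homer2 and Ncald kept their sign in all 3 lines. Homer2 at 1457671_at had 0.64 in tg and 1.04 in lh, with adjusted p of 1 and 0.484. Ncald at 1417569_at had -0.50 and -0.83, with adjusted p of 1 and 0.11. Nos1 at 1429887_at had 0.93 in tg and 0.29 in lh, with adjusted p of 0.18 and 0.967. Kcnk2 lay at 0.29 in tg and 0.00 in lh, and Scn3b at -0.13 in tg and 0.40 in lh.

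Promoters were searched for the cyclic AMP response element, the site bound by CREB, because Bdnf, Vgf, Scg2 and other activity-regulated genes are known to carry it. The windows run from 250 bases before to 50 after a gene's start (RefSeq, GRCm38.p6), and 16 of the 20 genes have at least 1. The full element TGACGTCA, which reads the same on both strands, was in 1 of the 16, Chgb, and in 2.03% of 27025 genes. Its core TGACG, on either strand and contained in the full element, was in 4 of the 16, against 23.0% of all genes, so that the share was near that of the genome. The 4 windows are shown because they hold the core, with each core, read as TGACG or CGTCA, in capitals. Chgb (chr2:132781392-132781691, plus strand) and Ets2 (chr16:95702157-95702456, plus strand) had negative differences, and Nos1 (chr5:117866589-117866888, plus strand) and Tcerg1l (chr7:138397681-138397980, minus strand) positive ones.
Chgb promoter: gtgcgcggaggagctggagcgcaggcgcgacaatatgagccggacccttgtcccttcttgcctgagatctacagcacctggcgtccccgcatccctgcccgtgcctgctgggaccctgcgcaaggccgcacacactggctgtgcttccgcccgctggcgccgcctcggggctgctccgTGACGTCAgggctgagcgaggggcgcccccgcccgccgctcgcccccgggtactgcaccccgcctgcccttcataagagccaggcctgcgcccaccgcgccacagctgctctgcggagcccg
Ets2 promoter: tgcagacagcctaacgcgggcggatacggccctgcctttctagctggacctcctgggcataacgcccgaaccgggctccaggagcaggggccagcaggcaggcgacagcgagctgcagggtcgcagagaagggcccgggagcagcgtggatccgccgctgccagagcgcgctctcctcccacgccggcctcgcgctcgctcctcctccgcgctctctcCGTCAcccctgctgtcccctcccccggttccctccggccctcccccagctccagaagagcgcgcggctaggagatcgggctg
Nos1 promoter: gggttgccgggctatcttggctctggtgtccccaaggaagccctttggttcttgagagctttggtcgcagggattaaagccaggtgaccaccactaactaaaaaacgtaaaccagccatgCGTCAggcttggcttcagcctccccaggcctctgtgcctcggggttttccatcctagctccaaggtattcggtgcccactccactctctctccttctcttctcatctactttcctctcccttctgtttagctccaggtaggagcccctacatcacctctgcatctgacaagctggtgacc
Tcerg1l promoter: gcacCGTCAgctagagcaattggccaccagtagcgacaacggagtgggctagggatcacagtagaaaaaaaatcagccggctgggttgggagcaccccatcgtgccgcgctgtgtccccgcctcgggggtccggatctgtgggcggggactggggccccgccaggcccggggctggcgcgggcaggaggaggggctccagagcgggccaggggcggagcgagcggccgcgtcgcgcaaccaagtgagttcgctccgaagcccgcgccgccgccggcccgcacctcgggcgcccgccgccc
The element of Chgb begins 72 bases before the start and the core of Ets2 32 bases before it, while those of Nos1 and Tcerg1l begin 130 and 246 bases before it. A match is a run of letters and not a shown binding site.

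Below the filter on dim probe sets, 2 further probe sets were called when no filter was used, and both are named after their values were seen. Mapk13, the delta isoform of p38 MAP kinase, read 363, 173 and 425 in stg-/- cerebellum, against 13.8, 4.94 and 11.4 in stg+/+ cerebellum. In forebrain it read 10.1, 2.41 and 6.39 in stg-/- and 21.1, 10.6 and 8.01 in stg+/+. Only stg-/- cerebellum was clearly above the floor, and the effects differed by 5.42 ± 0.69 (log2, SE; adjusted p = 0.0057 in the unfiltered fit). Cdkn2b, an inhibitor of cyclin-dependent kinases, read 16.4, 7.68 and 4.64 in stg-/- cerebellum, against 48.6, 22 and 47.3 in stg+/+ cerebellum. In forebrain it read 29.4, 36.6 and 29.3 in stg-/-, against 3.86, 5.51 and 5.04 in stg+/+. Its effects were -1.79 in cerebellum and 2.16 in forebrain, opposite in sign, neither called on its own (adjusted p = 0.129 and 0.992), with a difference of -3.95 ± 0.65 (adjusted p = 0.037), at signals near the floor.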

How the data were processed

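The deposited values are signal intensities on a linear scale, from 0.0223 to 16805; the steps by which the authors derived them are not stated in the labels read here. Trimmed by 2% at each end, the deposited intensities averaged 150 on each stg array. Medians of log2(intensity + 2.98) spanned 0.176 over the 12 arrays, below the limit of 0.5 for quantile normalization. Without 64 AFFX controls, the 27022 probe sets whose mean exceeded the 40th percentile were tested with limma 3.58.1 in R 4.3.3 (a mean per group, intensity trend, two-sided moderated tests, Benjamini-Hochberg over all 27022, called at 0.05). No detection calls were used, and 3 arrays a group limit the precision. P-values cover the spread between these arrays: array 3 of each group differs in sex from arrays 1 and 2, and whether those are separate animals is not stated.

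Symbols came from the platform table: 34958 probe sets had 1, 932 several and 9211 none, and 34754 of the first matched GRCm38.p6 by Entrez ID. Named were Cacng2, up to 12 positive and 12 negative called genes without overlap in the leading region, up to 10 genes shared by both regions, and called list members. The fit was tested on simulated data. The gene lists, the rule and the tests were chosen with earlier results of these data known.

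Same-numbered arrays deviated together in every pair (all r above 0.1), so both blocked fits are reported; the cerebellar numbers come from the titles. Alternatives were the filter, the constant, quantile normalization, no trend, array weights, all 36 arrays, a term for replicate 3, the 2 blocks, and arrays left out.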

Additional observations from a re-analysis of the deposited data

Results flagged for a closer look

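Each of the 27 called results is a difference between regions by its own test: the effect of stg-/- in cerebellum and that in forebrain differed (limma, adjusted p under 0.05 over 27022 probe sets). The positive differences, in log2, were those of Homer2 (2.22 and 2.09), Nos1 (1.44 and 1.73), Kcnk2 (1.54), Scn3b (1.79), Tcerg1l (1.61), Sox4 (1.29), Igsf3 (1.62), Inf2 (1.39 and 1.80), Marcks (0.77), 1438778_at (1.33), Sema5b (1.53) and Astn1 (0.73). The negative ones were those of 1458697_at (-1.82), Ncald (-1.57 and -1.41), Vsnl1 (-1.11), Car4 (-1.17 and -1.01), Ets2 (-0.98), Sphkap (-0.78), Chgb (-0.78), Dclk1 (-0.74), Adamts10 (-1.24) and Igfbp5 (-1.17). In each, the cerebellar effect was the larger one.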

How the results depend on the processing

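The 27 called differences, chosen on these arrays, kept their sign under all 13 alternatives and with each of the 12 arrays left out, but fewer kept the threshold: 5 probe sets (1458697_at, Homer2 at 1457671_at, both of Nos1 and Ncald at 1417569_at) passed under all of them, and 13 passed with each array left out. The count of called differences was 11 with no intensity trend, 46 with array weights, 67 with all 36 arrays in the fit, 75 with a term for replicate 3 and 10 without the 2 forebrain arrays with pituitary transcripts, which leaves 1 array in that group. With the replicate block it was 110 within each region and 142 as a random block across regions. Leaving out 1 array gave 15 to 34, and under 18 without stg-/- forebrain 1 (16) or 2 (17), stg+/+ forebrain 2 (15), stg-/- cerebellum 1 (17) or stg+/+ cerebellum 1 (16). The other 6 alternatives gave 24 to 33. The cerebellar count was 143 with no trend, 667 with the block within each region and 547 with the term for replicate 3. With an array left out it ran from 137 to 286, the lowest without stg+/+ cerebellum 1; without stg-/- cerebellum 3 it was 187 and without stg+/+ cerebellum 3 it was 180. The forebrain count in limma was 0 with a filter at the 60th percentile (466 of 18015 at an unadjusted p under 0.05), where 1420596_at of Cacng2 was not tested and the other 2 calls had an adjusted p of 0.0524. It was 1 with a constant of 1 and 1 with no trend, 6 with the block within each region, and 1 to 4 with an array left out. The count of mean effects was 28 with no trend, 119 with array weights, 139 with all 36 arrays, 190 and 32 with the block within and across regions, 174 with the term for replicate 3 and 26 without the 2 forebrain arrays, and ran from 39 to 68 with an array left out, with 42 to 47 without stg-/- forebrain 1 or 2, stg+/+ forebrain 1 or 2 or stg-/- cerebellum 1, and 39 without stg+/+ cerebellum 1. The cause was not tested.

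Signal over background limits what a floor value can show: of Cacng2, Mapk13, Cdkn2b and A430027H14Rik the low groups lie near the added constant. Their log2 differences therefore depend on it. The difference of effects adds the error of 4 groups, with a median SE of 0.27 against 0.19 for the cerebellar effect alone, so that a forebrain effect that did not pass is not shown to be absent outside the intervals given.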

Other observations

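The named genes with an adjusted p under 0.08 that missed the threshold of the difference of effects are given as values. Gab1, an adaptor of growth factor receptors, had an effect of 0.77 in cerebellum and -0.23 in forebrain (adjusted p of the difference 0.0532). The differences were -1.52 for the phosphatase Acp1 (adjusted p = 0.0551), -0.70 for Bend6 (0.0615) and 2.86 for A430027H14Rik (0.0728). In stg+/+ cerebellum A430027H14Rik read 2.84, 11.3 and 4.26, near the floor. Oprl1, the nociceptin receptor, had 1.48 (adjusted p = 0.0754), and Olfm1, a secreted olfactomedin, had -0.86 (0.0763). Timp2, an inhibitor of metalloproteases, had 0.85 (adjusted p = 0.0763), and Nectin3, an adhesion molecule, had 1.34 (0.0779). With Bdnf, given above, each had a called effect in cerebellum and an unadjusted p of 0.08 or above in forebrain.

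With the replicate block, 2 probe sets in each blocked fit had the larger effect in forebrain. Under the random block across regions these were Ldoc1 and Kcnk12, a two-pore potassium channel gene with -0.72 in cerebellum and 1.41 in forebrain (difference of effects -2.13, adjusted p = 0.0427). None of the 4 was called in forebrain on its own.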
